A study of Mus musculus with 6 samples.

Results

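The coding response of mouse embryonic fibroblasts (MEFs) to 6 hr of TNFα was described as the ratio of the level of each gene at 6 hr to its level in untreated cells. MEFs are fibroblasts grown out of whole embryos, and here they were primary wildtype cells of mixed C57BL/6 and 129 background, taken from littermate embryos of day 13.5 and passaged 4 times. The untreated cells received no cytokine, and the treated cells received 20 ng/ml of TNFα for 6 hr. Polyadenylated RNA was sequenced as 1 directional paired-end library per time, so the comparison rests on 2 of the 6 samples of the series, and nothing in the labels names separate cultures. The other samples were RNA after 1.5 and 24 hr of TNFα, an H3K4me3 ChIP of untreated MEFs and its input. A gene was the coding RefSeq transcript with the highest mean level among those of its symbol, which gave 20275 genes, and 6571 of them had a mean over the 4 RNA libraries above an RPKM (read density of a transcript, scaled to its length and to the depth of the library) of 1. The ratios below concern these 6571 genes unless stated, and none of them was listed at 0 in either library.

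TNFα is a cytokine made mainly by activated macrophages. Binding of its receptor Tnfrsf1a recruits adaptors such as Tradd and Traf2, the IκB proteins are degraded, and dimers of the NF-κB family enter the nucleus and bind κB sites. Many direct targets are chemokines, adhesion molecules and the inhibitors of the pathway itself, among them Nfkbia (IκBα) and Tnfaip3 (A20), whose resynthesis limits the response.

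A κB motif of 10 bases was searched on both strands from 250 bases before to 50 bases after the transcript start of each gene. It was present in 5.32% of 16372 windows over all genes with a matched start, in 5.45% of the genes above the threshold and in 7 of the 20 genes with the largest rises at 6 hr. The windows of these 7 genes are shown, with the motif in capitals, since they include chemokines and feedback inhibitors among the largest rises. The chemokines Ccl2 and Ccl7, also among these 20 genes, had no match. Coordinates are those of the mm9 genome, all windows lie upstream of the start, and each sequence is written on the strand of its gene.
Ccl5, chr11:83344091-83344120, minus strand: tgtcttttgtGGAAACTCCCcaagtcctgg
Ccl20, chr1:83113251-83113280, plus strand: aatcaatgggGGAAAACCCCgggtgagaac
Cxcl2, chr5:91332818-91332847, plus strand: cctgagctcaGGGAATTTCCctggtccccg
Cxcl10, chr5:92777999-92778028, minus strand: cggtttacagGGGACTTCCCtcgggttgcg
Nfkbia, chr12:56593644-56593673, minus strand: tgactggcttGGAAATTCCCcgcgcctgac
Tnfaip3, chr10:18735322-18735351, minus strand: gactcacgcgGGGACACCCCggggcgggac
Rnd1, chr15:98508067-98508096, minus strand: caaaaagcgtGGGAATCCCCttccaagagg

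A match is a description of the letters and does not show binding. The Cxcl2 window also matches the motif 1 base further on, and Cxcl10 has another match 166 bases before its start. Among genes with a centred log2 ratio of 3 or more, 9 of 29 windows (31%) held the motif, against 4.92% of the 3009 genes with a ratio between -1 and 0. The core of the interferon-stimulated response element was found in 24.1% and the AP-1 motif (TGANTCA) in 31% of the same 29 windows, against 3.32% and 5.74% of the windows of all genes. The GAS motif (TTCNNNGAA) was found in 3 of the 20 largest rises and in 7.18% of all windows, and the serum response motif in 0 of the 20 and in 1.44% of all windows.

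The 6 hr library had the fewest reads on coding genes. Its reads on genes numbered 6778716 and 6583935 in the R1 and R2 columns that the table gives for each library, against 12922378 and 12564522 in the untreated library. Genes held 18.5% and 16.9% of the column totals at 6 hr, against 30.2% and 29% in the untreated library. The share was also higher at 1.5 hr (35.9% and 35.2%) and at 24 hr (28.2% and 27%), and the cause was not tested. The median gene had 663 reads in the untreated and 357 at 6 hr, and the ends of the 95% counting interval of a log2 ratio lay a median of 0.19 from it. This interval covers counting error only, and with 1 library per time there is no replicate check, so no p-value is given. Before centring, the median log2 ratio of 6 hr to untreated was -0.741, and the shift was similar in both columns (-0.717 and -0.77). All ratios below are centred on this median and thus give a change relative to the middle gene, whereas RPKM values are given before centring. The same median was 0.453 at 1.5 hr and 0.111 at 24 hr. RPKM values at different times carry these shifts, so a fall at 6 hr looks larger in them than after centring. A gene was counted as higher or lower at 2-fold, a centred log2 ratio of 1 or -1. In bulk RNA, fewer cells of a type and less RNA per cell cannot be told apart.

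Of the 6571 genes, 468 (7.12%) passed 2-fold upwards at 6 hr, 208 (3.17%) passed it downwards, and 5895 (89.7%) lay within it. The rises were larger than the falls: 81 genes passed 4-fold and 30 passed 8-fold upwards, whereas 6 passed 4-fold downwards. In both columns taken separately, 403 genes (6.13%) were higher and 175 (2.66%) were lower. The threshold used all 4 RNA libraries, so a gene with an untreated level under an RPKM of 1 was kept only where a treated library lay above it. Of 722 such genes 198 were higher and 0 lower, which this selection favours. The list counts below carry it too, also where it is not repeated. A mean of the untreated and 6 hr libraries of an RPKM of 1 or less was found in 1022 genes, of which 139 were higher and 7 lower. With the threshold on these 2 libraries alone, 370 of 5640 genes (6.56%) were higher and 172 (3.05%) lower. The 2-fold limit passed between close neighbours. Ppp4c and Ndufb6 just passed it and Sept2 and Fam92a just missed it, with centred ratios that all round to 1. On the lower side Rcn3 and Csdc2 just passed and Ypel4 just missed, with ratios that round to -1.

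**Figure D1:**
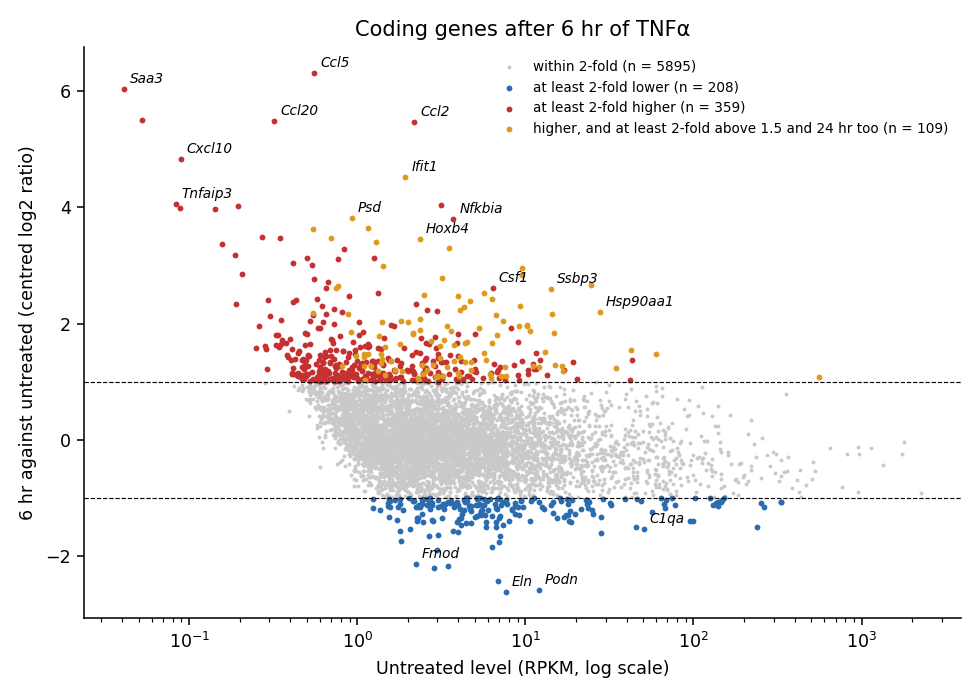
Each point is 1 of the 6571 coding genes above the threshold, with its untreated level (RPKM, log scale) across and its centred log2 ratio of 6 hr to untreated upwards, and the dashed lines mark 2-fold. The 468 higher genes (red and orange) reach 6.31 and the 208 lower genes (blue) reach -2.63. Genes with an untreated level under an RPKM of 1 are shown only where a treated library lay above it.

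Chemokines held 5 of the 6 largest rises. Ccl5, which attracts T cells and monocytes, had a level of 0.555 RPKM untreated and 26.4 RPKM at 6 hr, from 26.7 to 1113 reads, a centred log2 ratio of 6.31 (counting interval 5.76 to 6.92). Ccl2, the main attractant of monocytes, had 2.18 RPKM untreated and 58 RPKM at 6 hr, a ratio of 5.47 (5.25 to 5.71). Ccl20, the ligand of Ccr6, had 0.321 RPKM untreated and 8.64 RPKM at 6 hr, a ratio of 5.49 (4.89 to 6.16). Above the threshold were 8 of 17 CC chemokines, and 7 of these were higher, with a list median of 3.21: beside the 3 above these were Ccl7 (4.05), Ccl12 (2.37), Ccl8 (2.03) and Ccl9 (1.27). Ccl12 and Ccl9 had a mean under an RPKM of 1 in the 2 compared libraries and passed the threshold through the other times. Over the 14 CC chemokines above 0 in both libraries the median was 1.94. Levels at the other times differed between these genes. Ccl2 was at 212 RPKM at 1.5 hr and 158 RPKM at 24 hr. Its 6 hr level was the lowest of the treated libraries also after centring (6.15 at 1.5 hr and 6.06 at 24 hr). Ccl5 was at 18.6 RPKM at 1.5 hr and 36.6 RPKM at 24 hr before centring, whereas after centring its ratio was highest at 6 hr.

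The CXC chemokines were split. Cxcl1 and Cxcl2, which attract neutrophils, had ratios of 3.11 and 5.51, and Cxcl10, the interferon-inducible ligand of Cxcr3, had 4.83. Cxcl2 and Cxcl10 were nearly silent in untreated cells, with 5.12 and 8.56 reads, and had 123 and 128 reads at 6 hr. Cxcl5 (2.02) and Cx3cl1 (1.68) were higher too. Cxcl14, a chemokine of resting tissue, was lower, from 5.51 RPKM untreated to 1.42 RPKM at 6 hr (-1.22), while at 1.5 hr it was at 9.72 RPKM. Altogether 5 of the 8 measured members were higher and 1 lower, with a median of 1.85. Cxcl2 and Cxcl10 had a mean under an RPKM of 1 in the 2 compared libraries and passed the threshold through the other times. With only genes above an RPKM of 5 the median was -0.55, but this filter left only Cxcl12 (-0.03) and Cxcl14 and none of the higher members.

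Among the NF-κB subunits, Relb (1.96), Nfkb2 (1.82) and Nfkb1 (1.12) were at least 2-fold higher. Rela, the main activating subunit, had 4.72 RPKM untreated and 4.6 RPKM at 6 hr, a centred ratio of 0.71. Rel was below the threshold. Relb went from 1.65 RPKM untreated to 3.86 RPKM at 6 hr, after 8.24 RPKM at 1.5 hr. After centring, the ratio of Relb at 1.5 hr was not above that at 6 hr. The subunits of the noncanonical arm, Relb and Nfkb2, thus had the highest ratios of the family, and their counting intervals (1.77 to 2.16 and 1.73 to 1.92) did not overlap that of Nfkb1 (0.94 to 1.30).

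Of the inhibitors that NF-κB itself induces, 3 stood higher than every subunit. Tnfaip3, the ubiquitin-editing enzyme A20, had 0.0833 RPKM untreated and 4.67, 0.827 and 1.74 after 1.5, 6 and 24 hr, a ratio of 4.05 at 6 hr (3.53 to 4.62). Nfkbia had 3.73 RPKM untreated and 84.2, 31 and 67.4 after 1.5, 6 and 24 hr, a ratio of 3.80 at 6 hr (3.67 to 3.93). After centring, the ratios of Nfkbia at 1.5 and 24 hr were close to that at 6 hr. Nfkbie (IκBε) followed with 3.13, and Tnip1 (1.29), Bcl3 (1.22) and Nfkbib (1.02) were just past 2-fold. So 6 of 10 measured inhibitors were higher and none lower, with a median of 1.12.

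The receptors and adaptors upstream of NF-κB moved little. Of 17 measured members, 1 was higher, Birc3 (cIAP2), at 2.06, and none was lower. Birc3 was under an RPKM of 1 in both compared libraries and passed the threshold through the other times. Tnfrsf1a, the receptor itself, had 6.89 RPKM untreated and 3.06 RPKM at 6 hr (-0.43), Tradd had -0.33 and Traf2 had 0.67. The list median was 0.32, and it fell below 0 when only genes above an RPKM of 5 were kept or when the threshold was set on these 2 libraries alone. The filter at an RPKM of 5 left only Tnfrsf1a, Rbck1 and Sharpin. Traf1 lay below the threshold with 5 reads untreated and 64.4 reads at 6 hr (4.62, interval 3.32 to 6.29). Ripk2, the kinase downstream of the Nod receptors, was among the 20 largest rises, with 0.272 RPKM untreated and 1.83 RPKM at 6 hr (3.49).

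Cytokines other than chemokines were mostly too low to be followed, with 4 of 23 interleukins and colony-stimulating factors above the threshold. Lif, an Il6 family cytokine, was higher (3.05), and so was Csf1 (2.61), the growth factor of macrophages, with 6.42 RPKM untreated and 23.5 RPKM at 6 hr. Il6 itself had 0.659 reads untreated and 9.91 reads at 6 hr, a ratio of 4.84 with an interval of 2.03 to 10.28, so that only its direction is defined at this depth. Irg1, which makes itaconate in activated macrophages, was listed at 0 in the untreated library and had 34.3 reads at 6 hr and 111 reads at 1.5 hr. Tdpoz5, Gm10697, Bcl2l15 and Prss30 were listed at 0 as well, with under 10 reads each at 6 hr.

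Saa3, a serum amyloid A protein of the acute phase, had the second largest rise at 6.04, but its untreated level of 0.0411 RPKM stood for 1.98 reads, and the interval was wide (4.13 to 9.11). Its level was highest at the last time, with 0.736, 1.61 and 9.04 RPKM after 1.5, 6 and 24 hr. Serpina3g (1.78), Ptx3 (1.75) and Serpina3f (1.42) were also higher, so 4 of the 5 measured acute-phase genes were. The fifth, Serpina3n, had -0.92. Saa3 and Serpina3f had a mean under an RPKM of 1 in the 2 compared libraries and passed the threshold through the other times. The choice of genes thus shaped this count, and 15 of the 20 tabulated genes lay under the threshold.

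Of 7 measured surface proteins that hold leukocytes, 4 were higher. Vcam1 and Icam1, which bind integrins of leukocytes, had ratios of 3.0 and 2.72, and Cd44 (1.49) and Cd47 (1.26) followed, while Mcam (-0.22) and Jam3 (-0.06) were below the centre. Cd14, the coreceptor for lipopolysaccharide, was the 1 gene of 7 measured innate sensors that was higher (2.25). Of the prostaglandin genes Ptgs2 (cyclooxygenase 2) lay at the limit with 1.02, with 3.13 RPKM at 1.5 hr and 0.928 RPKM at 6 hr. Mmp10, a stromelysin, went from 0.345 RPKM untreated to 2.29 RPKM at 6 hr (3.48) and to 10.5 RPKM at 24 hr. Mmp9 (2.76), Mmp13 (2.61) and Mmp3 (2.23) were higher as well, and each of these had its highest level at 24 hr. Adamts2, which cleaves procollagen, was lower (-1.16). The remaining 10 of the 15 measured metalloproteinases and inhibitors lay within 2-fold, so that the list median of -0.21 was near the centre, and it changed sign in the R2 column alone and with centring by level.

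Genes known from the interferon response were divided by class. The 4 guanylate-binding proteins and immunity-related GTPases above the threshold, of 15 tabulated, were higher: Gbp2 (4.02), Gbp1 (4.00), Gbp3 (3.37) and Irgm1 (2.04). Gbp1, Gbp3 and Irgm1 had a mean under an RPKM of 1 in the 2 compared libraries and passed the threshold through the other times, so the choice of genes shaped this count. Its median of 3.68 was 2.25 without the filter and 1.25 with a pseudocount of 1 RPKM. Gbp2 had 43 reads untreated and 367 reads at 6 hr. Irf1, an activator of such genes, had 1.33 RPKM untreated and 4.57 RPKM at 6 hr (2.52) and was the 1 of 6 measured interferon regulatory factors past 2-fold. Of 17 measured antiviral genes 5 were higher, with a median of 0.65. Of these, Parp9, Oasl2, Rtp4 and Ifi204 were under an RPKM of 1 in both compared libraries and passed the threshold through the other times. The choice of genes thus shaped this count as well. The other was Ifit1, whose ratio differed between the columns (2.95 and 5.14). Isg15 had 0.55. None of the 10 measured STAT and SOCS genes was past 2-fold in either direction.

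Of 19 measured genes of antigen presentation by MHC class I, 7 were higher and 12 lay within 2-fold. The list median was 0.89, with 18 members above the centre. H2-K1, a classical heavy chain, had 3.99 RPKM untreated and 8.4 RPKM at 6 hr (1.82), H2-D1 had 0.88, B2m had 0.78 and Tap1 had 0.12. The immunoproteasome subunits Psmb8 (1.52) and Psmb10 (1.34) were higher. H2-Q8 (2.18), H2-Q7 (1.20), H2-Q6 (1.13) and H2-T10 (1.26) belong to families of similar class I genes. Reads may be split between such relatives, so their single values are uncertain. The constitutive proteasome as a whole stayed near the centre with a median of 0.06. Of its 31 subunits 4 were higher, against 7.12% of all genes above the threshold: Psmd7 (2.96), Psma3 (1.66), Psmd1 (1.29) and Psma1 (1.14). Psmd7 and Psmd1 had their highest level at 6 hr and belong to the 6 hr peak genes described below.

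Transcription factors and cell death genes were higher in part. Of 13 measured immediate-early genes 6 were higher, led by Ctgf (1.68) and Ier3 (1.67), with Btg2 (1.46), Myc (1.36), Klf6 (1.08) and Cyr61 (1.03). Junb (1.22) and Fosl1 (1.09) were higher and Jund was lower (-1.29), so the AP-1 factors were split. Fas, a death receptor, had 0.187 RPKM untreated and 1.02 RPKM at 6 hr (3.19). Bid, which links death receptors to mitochondria, had 2.15. Bcl2a1a, Bcl2a1b and Bcl2a1d, near-identical antiapoptotic copies, had 1.14, 1.44 and 1.11 on 50 reads or fewer in either library. Trp53 had 1.18 and Cdkn1c, an imprinted Cdk inhibitor, -1.41. Among the other genes that the study names as induced, Sod2, the mitochondrial superoxide dismutase, had 1.92, while Gadd45b (0.60) and Cdkn2a (0.84) lay within 2-fold at 6 hr. Before centring, Gadd45b had 13.7 RPKM and Cdkn2a 41.5 RPKM at 1.5 hr, against 3.48 and 9.13 RPKM at 6 hr. The median gene was lower at 6 hr than at 1.5 hr too, but both genes passed 2-fold at 1.5 hr also after centring.

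Metabolic lists stayed near the centre. Of 27 measured genes of cholesterol synthesis 3 were higher (Idi1, Sc5d and Nsdhl, at 1.43, 1.14 and 1.13). Of 16 glycolysis genes Hk2, a hexokinase, was higher (2.03). Of 18 measured chaperones of the endoplasmic reticulum none was past 2-fold. Slc7a2 (1.74), a carrier of arginine, and Ass1 (1.22), which makes argininosuccinate, were higher, whereas Nos2 had 1 read or fewer in both libraries. In the integrated stress response Cebpb was higher (1.38), and Trib3 (-1.48) and Slc7a5 (-1.11) were lower. Of 20 measured antioxidant enzymes and metallothioneins 3 were higher, Sod2 (1.92), Prdx3 (1.48) and Slc7a11 (1.36), and Mt1, a metallothionein, was lower (-1.12), with a median of 0.30.

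**Figure D2:**
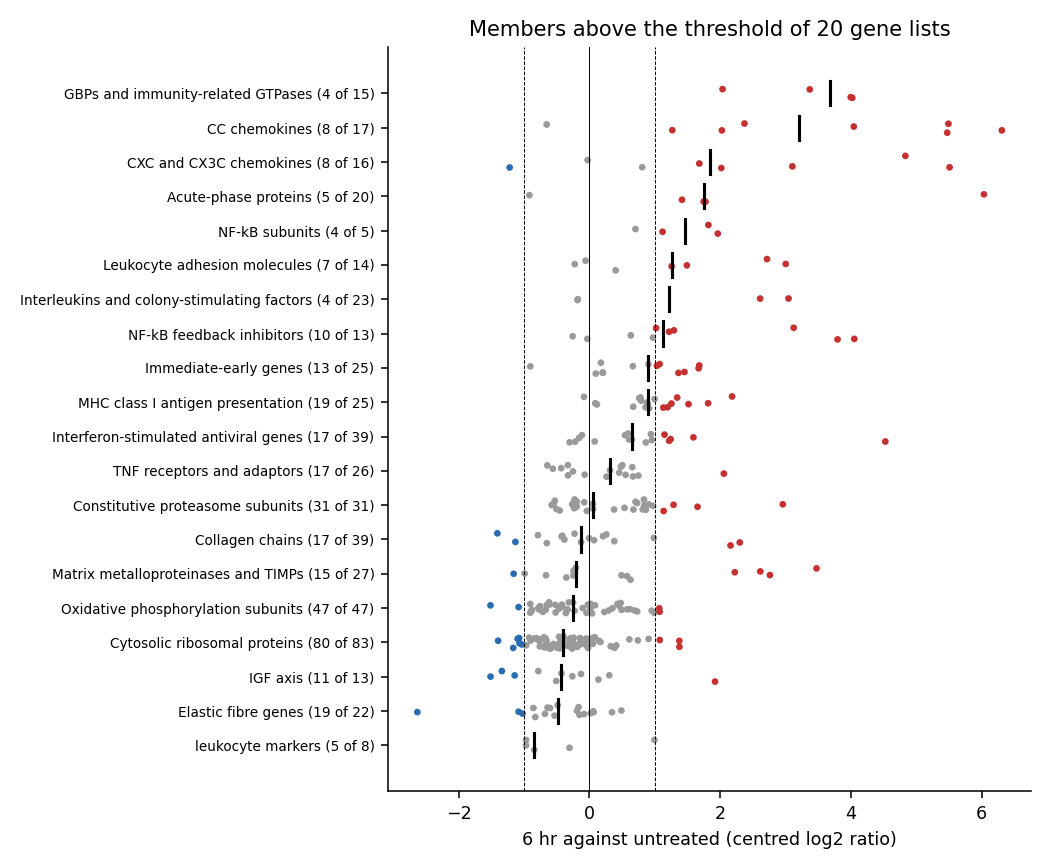
Points are the genes above the threshold in 20 lists by their centred log2 ratio of 6 hr to untreated, with list medians as black bars, 2-fold as dashed lines, and measured and tabulated members in brackets. Medians run from 3.68 in the guanylate-binding proteins to -0.84 in the leukocyte markers, and red and blue points are at least 2-fold higher and lower.

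The 20 largest falls included 4 genes of the extracellular matrix and its receptors, and the first and second were among them. Eln (tropoelastin) had 7.68 RPKM untreated and 1.89, 0.741 and 0.27 after 1.5, 6 and 24 hr, a centred ratio at 6 hr of -2.63 (-2.83 to -2.43) on 2635 and 223 reads. Podn (podocan), a small leucine-rich proteoglycan, had 12.1 RPKM untreated and 1.2 RPKM at 6 hr (-2.59, interval -2.77 to -2.42). Fmod (fibromodulin), which binds collagen fibrils, had 2.22 RPKM untreated and 2.08, 0.301 and 0.278 after 1.5, 6 and 24 hr, with centred ratios of -0.55 at 1.5 hr and -2.14 at 6 hr. Itga11, a collagen-binding integrin of fibroblasts, had -1.66. Neither Eln nor Podn was low at 6 hr alone: after centring, Podn had -2.60 at 1.5 hr and -3.93 at 24 hr, and Eln had -2.48 and -4.94.

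Most genes of the elastic fibre and collagen lists lay within 2-fold, but the elastic fibre list lay below the centre. Of 19 measured elastic fibre genes 3 were lower, Eln, Mfap5 (-1.08) and Mfap4 (-1.02), and none was higher. Below the centre were 14 of the 19, with a median of -0.48. Fbn1 (-0.16), Fbln5 (0.06) and Lox (0.49) lay near the centre. Of 17 measured collagen chains Col6a2 (-1.41) and Col6a1 (-1.13) were lower, and the main fibrillar chains Col1a1 (-0.38), Col1a2 (-0.23) and Col3a1 (-0.13) were within 2-fold. Col7a1 (2.30) and Col5a3 (2.16) were higher and had their highest level at 6 hr: Col7a1 had 9.34, 3.19, 27.5 and 3.96 RPKM from untreated to 24 hr. In the TGFβ list of 18 genes the higher ones included Ctgf and Cyr61, and Tgfbi (-1.42), Tgfb3 (-1.34) and Wisp2 (-1.27) were lower. In the IGF axis Igfbp7 was higher (1.92), and Igfbp6 (-1.51), Igfbp4 (-1.34) and Irs1 (-1.14) were lower, with a median of -0.43 over 11 measured genes.

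The other large falls came from several functions. Rab3il1 (-2.22) and Rab3a (-1.54) belong to vesicle transport, Mdk (midkine) is a heparin-binding growth factor (-2.18), Dhrs3 reduces retinal (-1.76), Vkorc1 recycles vitamin K (-1.62), Cby1 binds β-catenin (-1.58) and Rps6ka1 is a kinase downstream of Erk (-1.58). Kif26b, a kinesin family member, had 6.31 RPKM untreated and 1.05 RPKM at 6 hr (-1.84). Calml4 (-1.75), 1810043H04Rik (-1.67), Gm16381 (-1.65) and Ifi27l2a (-1.58) had under 30 reads each at 6 hr, and their intervals were wider than 1 log2 unit. Vkorc1 and Ndufa13, with 326 and 950 reads at 6 hr, were the more precisely measured.

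Genes of macrophages were among the falls. C1qa, a chain of complement C1q, had 50.5 RPKM untreated and 26.5, 10.4 and 8.95 after 1.5, 6 and 24 hr (-1.54 at 6 hr), and C1qb and C1qc had -0.94 and -0.89. Trem2, a receptor of myeloid cells, had 294 reads untreated and 41.5 reads at 6 hr (-1.90). Of the 8 leukocyte markers 5 were above the threshold, and none was past 2-fold. These were Csf1r (-0.97), Aif1 (-0.97), Cd68 (-0.84), Tyrobp (-0.30) and, in the other direction, Lyz2 (1.00, just under 2-fold). The list median was -0.84, and -0.23 when only genes above an RPKM of 5 were kept, where fewer of the markers remain. The summed level of the 8 was 51 RPKM untreated and 211, 41.3 and 105 after 1.5, 6 and 24 hr. From untreated to 6 hr this sum fell by less than the median gene did. Ptprc, Emr1 and Itgam were each under 0.5 RPKM untreated and at 6 hr. The fibroblast markers had a summed level of 1060 RPKM untreated and 505 RPKM at 6 hr and a median of -0.27. Neural markers summed to 14.9 RPKM untreated and 12.7 RPKM at 6 hr, and muscle markers to 4.74 and 2.75 RPKM. The summed levels of the endothelial, epithelial and pluripotent markers were under 0.6 RPKM in both libraries. The part of leukocytes in the values of complement and myeloid genes was not tested. The complement list had 1 higher (C1s, 1.15) and 1 lower member of 5, and its median of -0.89 turned positive without the filter on low values. C3, below the threshold, had 24.5 reads untreated and 163 reads at 6 hr (3.67).

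The ribosomal and respiratory chain lists lay slightly below the centre. Of 80 measured cytosolic ribosomal protein genes 65 were below it, with a median of -0.41, 7 lower and 3 higher. The lower ones were Rpl37 (-1.40), Rps12 (-1.16), Rpl26 (-1.10), Rpl37a (-1.09), Rpl29 (-1.07), Rps27 (-1.07) and Rps29 (-1.03), and the higher ones Rpl39 (1.38), Rps27l (1.38) and Rpsa (1.08). Ribosomal protein genes have many processed copies in the genome that could share their reads. The 47 subunits of oxidative phosphorylation had a median of -0.25 with 2 higher and 2 lower, the latter Ndufa13 (-1.51) and Ndufa8 (-1.08). None of the 54 measured histone genes was past 2-fold, and their median was 0.22. Over all 51 lists, 103 of the 468 higher genes (22%) and 33 of the 208 lower genes (15.9%) were members of a list. The share was 10.6% of all genes above the threshold, and the lists were chosen with earlier results of these data known.

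Some rises stood out at 6 hr against every other library. With the other times centred in the same way, 109 of the 468 higher genes (23.3%) had a level at least 2-fold above each of the other 3 libraries, whereas 21 had a 1.5 hr level at least 2-fold above that at 6 hr and 14 a 24 hr level at least 2-fold above it. These 6 hr peak genes included 6 of the 20 largest rises: Ifit1, Psd, Ammecr1, 4930523C07Rik, Hoxb4 and Naa15. Their median untreated level was 3.28 RPKM, and 10 of the 109 (9.17%) belonged to any list, against 25.9% of the other higher genes and 10.6% of all genes above the threshold. These 10 were Ifit1, Psmd7, Psmd1, Psmb10, H2-Q8, Hk2, Col7a1, Col5a3, Zfp36 and Rpsa. On the lower side 12 of the 208 genes had a 6 hr level at least 2-fold below all other libraries.

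Psd, an exchange factor of Arf GTPases, had 0.929 RPKM untreated and 0.673, 7.89 and 0.622 after 1.5, 6 and 24 hr (3.83 at 6 hr). Hoxb4, a homeobox transcription factor, had 2.37, 0.822, 15.5 and 1.54 RPKM (3.46), and Naa15, a subunit of an N-terminal acetyltransferase, 1.29, 1.03, 8.12 and 0.902 RPKM (3.40). All 3 had 2445 reads or more at 6 hr, and their ratios differed by under 0.1 between the columns. Ifit1, an antiviral RNA-binding protein, had 1.93, 4.55, 26.7 and 6.95 RPKM, but its ratio was 2.95 in the R1 column and 5.14 in the R2 column. In 24 genes the columns differed by over 2-fold, among them Kif3a (0.78 and 4.56), Timm22 (-0.99 and 3.97), Trim2 (3.15 and 1.71) and Nrp1 (0.97 and 2.52) of the 6 hr peak genes. On the lower side Mif4gd had 0.04 and -3.30. Further 6 hr peak genes, chosen after their values were seen, were Dkk2, an antagonist of Wnt signalling (3.31), Heatr3 (2.83), H2afy, the histone variant macroH2A1 (2.66), Ssbp3 (2.59), Tcof1 (2.24), Hsp90aa1 (2.19) and Eif5b (2.05).

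**Figure D3:**
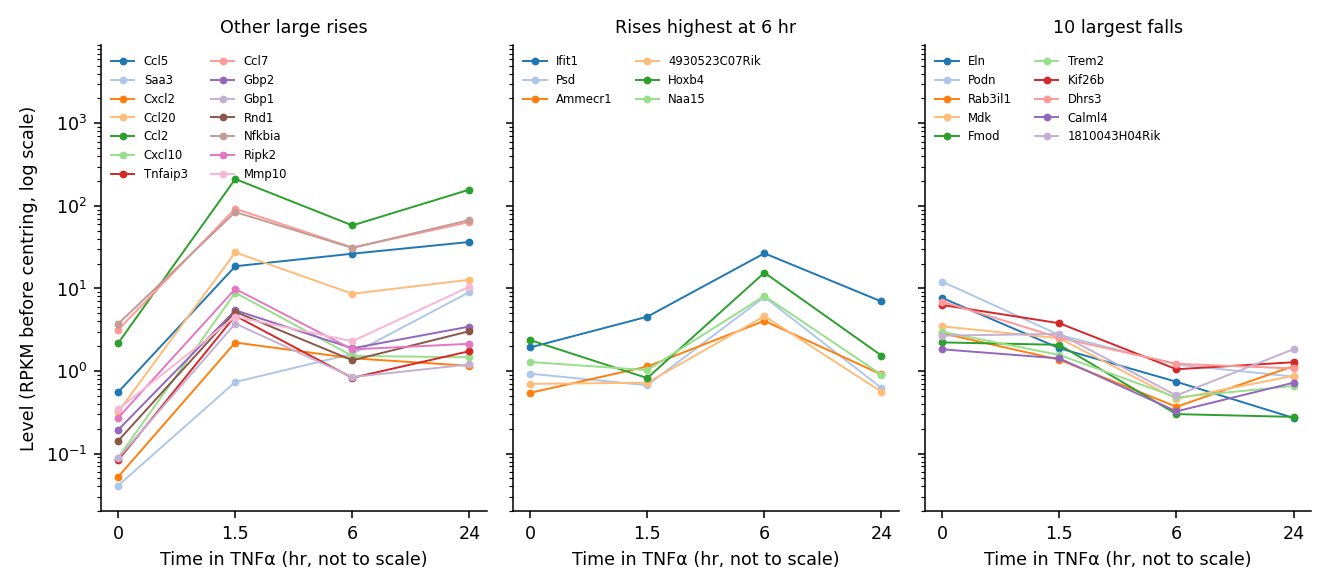
Lines join the levels (RPKM before centring, log scale, mean of both columns, 1 library per point) of single genes in untreated MEFs and after 1.5, 6 and 24 hr of TNFα, for the 20 largest rises in the left and middle panels and the 10 largest falls on the right. The 6 genes of the middle panel are highest at 6 hr, with Hoxb4 at 15.5 RPKM against 2.37 RPKM or less elsewhere. Ccl2 on the left is lower at 6 hr (58 RPKM) than at 1.5 hr (212 RPKM). The median gene is lower at 6 hr too, so this gap is smaller after centring.

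The 6 hr peak genes differed from the others in their sequence. A search made after the data were seen took the longest stretch of each transcript that holds only A and G (a purine run). Runs of 41 bases or more, the length of a whole read in these data, were found in 31 of 105 matched 6 hr peak genes (29.5%), in 10 of 350 other higher genes (2.86%), in 1.48% of the lower genes, in 1.73% of the genes within 2-fold and in 2.23% of all. The median longest run was 31 bases in the 6 hr peak genes and 14 in the other higher genes. Runs of C and T, of A and C and of G and T of that length did not differ in this way, with 2.86%, 0.952% and 3.81% in the 6 hr peak genes against 2%, 1.09% and 2.47% of all genes. Among genes whose annotated transcript matched the length behind the deposited value within 5%, the share was 29.3% in 6 hr peak genes (24 of 82), 2.06% in other higher genes and 1.62% in genes within 2-fold.

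The share of genes that were at least 2-fold higher at 6 hr went with the length of the run. It was 5.74% of 4526 genes with a longest run of 11 to 20 bases, 15.8% of 203 with 31 to 40, 22.9% of 96 with 41 to 60 and 39.6% of 48 with 61 or more. The share of 6 hr peak genes in these bins was 0.574%, 11.3%, 19.8% and 25%. The long runs of the 31 genes lay in the 3′ UTR in 21, in the coding sequence in 8 and in the 5′ UTR in 2, and a median of 71.2% of their bases were A. The run of Ifit1 had 120 bases, that of Dkk2 142 and that of Naa15 67, whereas Psd had no run over 12 bases. The runs of Hoxb4 and Ammecr1 lie in annotated transcripts longer than those behind their values and may be outside the part that was measured. Without the genes that have a run of 31 bases or more, 395 of 6224 genes were higher and 198 lower. Whether the runs have a part in these values was not tested.

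To show what such runs look like, windows of 3 coding genes are given, with the first 25 bases of the run in capitals after the 5 bases before it. They come from coding exons of mm9 and are written on the strand of the gene.
Hsp90aa1 (inducible cytosolic Hsp90 chaperone), run at chr12:111932464-111932511, minus strand: aggctGAAGAAAAGGAAGAGAAAGAGGAAG
Phf14 (PHD finger protein), run at chr6:11883471-11883520, plus strand: gacctAGAAAGAAAAAGGAGAAAGAAAAGG
Brd3 (BET bromodomain protein), run at chr2:27308494-27308538, minus strand: aaaccAAAGAAGAAGAAAGAGAAGAAGGAA

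The 3 genes had centred ratios of 2.19 (Hsp90aa1), 1.59 (Phf14) and 1.19 (Brd3) at 6 hr. Hsp90aa1 had 27.8, 30.5, 76.1 and 31.8 RPKM from untreated to 24 hr and was thus highest at 6 hr. In a coding sequence, codons made only of purines are those of lysine and glutamate and some of those of arginine and glycine.

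**Figure D4:**
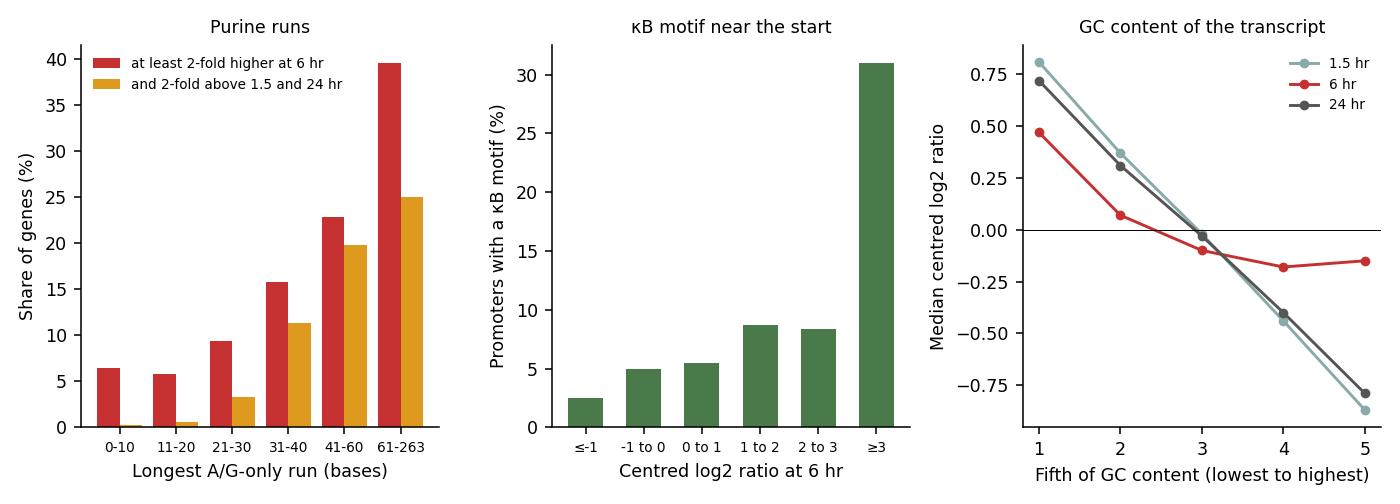
Left, the share of genes (%) at least 2-fold higher at 6 hr (red), and of those also at least 2-fold above 1.5 and 24 hr (orange), by the longest run of A and G in bases. Middle, the share of start windows with a κB motif by centred log2 ratio at 6 hr. Right, the median centred log2 ratio at each time in 5 equal groups of genes by GC content. The red share reaches 39.6% in the longest runs, the κB share is 31% at ratios of 3 or more, and the 6 hr line falls from 0.47 to -0.15.

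The κB motif was distributed the other way. It was found in 45 of 350 start windows of the other higher genes (12.9%) and in 1 of 105 windows of the 6 hr peak genes (0.952%). The lower genes had it in 2.46% and the genes within 2-fold in 5.18%. The absence of the letters from this window says nothing of sites elsewhere.

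The ratio also went with base composition. In 5 equal groups of genes by GC content, the lowest group (34.4 to 47.3%) differed most from the centre: the median log2 ratio was 0.47, and 18.8% of its genes were higher and 0.62% lower. In the highest group (57.4 to 71.7%) the median was -0.15, with 2.95% higher and 5.2% lower. Spearman's rho across 6446 genes, which share 2 libraries and are not independent, was -0.37. The medians of these groups at 1.5 hr ran from 0.81 to -0.87 and at 24 hr from 0.72 to -0.79, and these comparisons share the untreated library. Higher genes had a median GC content of 46.8%, lower genes 55.6% and genes within 2-fold 53.2%. With ratios centred within 20 bins of GC content, 316 genes were higher and 167 lower, and 267 of the 468 (57.1%) and 121 of the 208 (58.2%) were still called. Ccl5 (6.41), Nfkbia (3.90) and Eln (-2.48) had values within 0.2 of the main ones, whereas Ccl20 (4.80) and Naa15 (2.71) were closer to the centre. Length went with the ratio weakly (rho 0.06): 6.2% of the genes with the shortest transcripts were lower, against 1.94% of those with the longest, and 6.98% and 5.59% were higher. The part of base composition in single ratios was not tested.

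H3K4me3, a mark of active and poised promoters, was read from the 11157 peaks of untreated MEFs. A peak lay within 1 kb of the start in 392 of 455 higher genes (86.2%), in 76.4% of lower genes and in 93.2% of genes within 2-fold, against 35.7% of genes under the threshold. Within ranges of untreated level the lower genes had the smallest share: between an RPKM of 2 and 5 it was 73.6% of 72 lower, 86.7% of 105 higher and 91.5% of 1970 genes within 2-fold, and between 5 and 20 it was 77% of 74, 100% of 56 and 94.3% of 1358. There was 1 ChIP library, so these shares have no replicate check. Of the 20 largest rises 9 had a peak, among them Tnfaip3, Nfkbia, Rnd1, Ripk2 and Gbp2. The chemokines Ccl5, Ccl20, Ccl2, Ccl7, Cxcl2 and Cxcl10 had none before TNFα, nor had Saa3, Ifit1, Gbp1, Mmp10 and Hoxb4. Of the 20 largest falls 11 had a peak, and Eln, Fmod, Trem2, Mdk and C1qa were among those without.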

How the data were processed

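The authors mapped the reads to the mm9 mouse genome with TopHat and computed RPKM values per RefSeq transcript with their own script, in 2 columns (R1 and R2) per library. Which reads each column holds is not given in the sources used here, so their mean was used as 1 value. The deposited RPKM values stand on a scale of their own: a value of 85.6 was taken as an RPKM of 1, the median over 5211 values of the study's own list of RPKM. They were found to be whole numbers of covered bases (within 0.001 base), scaled by length and a library total, for all 23332 transcripts above 0, and division by 41 bases gave reads. The totals of R1 and R2 were 42824727 and 43292422 untreated and 36719296 and 38958847 at 6 hr, and an RPKM of 1 stood for 2.09 reads per kilobase per 1000000 of these. Over genes with 40 to 200 reads in sum, R1 and R2 differed by less than independent counts would (median squared difference over the sum 0.164 at 6 hr, 0.455 for independent counts), so they are not replicates. Intervals are exact binomial (Clopper-Pearson, 95%) on the mean of both columns. The authors called the deposited H3K4me3 peaks, each with its tag count, a score made from its p-value, its fold enrichment over background and its FDR as a percent, of which position and fold were used.

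Coding rows were kept, 1 per symbol (the highest mean of the 8 columns), and genes with a mean above an RPKM of 1 were compared. Log2 ratios of the mean at 6 hr to the mean untreated, with no pseudocount, were centred on their median. With 1 library per time no test was made. Members and gene lists were chosen with earlier results of these data known. Named are the 20 largest rises and falls past 2-fold in both columns, in each list its leading 4 genes and members past 2-fold in both columns, the 6 genes that the study names, neighbours of the threshold and genes at 0 untreated, and others where the text says so or where a count needs them. GENCODE vM1 transcripts on mm9, matched by symbol and nearest length (98.1% of genes above the threshold, 80.3% within 5% of the length), gave starts, GC content and sequence. Some genes and sequences that the rule names are not reported here. Alternatives concerned centring, filter, pseudocount, columns, rows and fold. The steps were tested on simulated data. Python 3.11.15, numpy 2.4.6, pandas 2.3.3, scipy 1.17.1 and matplotlib 3.10.9 were used.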

Additional observations from a re-analysis of the deposited data

Results flagged for a closer look

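Hoxb4 moved in opposite directions at 6 hr and at 1.5 hr. Its centred log2 ratio to untreated was 3.46 at 6 hr and -1.98 at 1.5 hr, a difference of 5.44, with both columns on the same side at each time. With 1 library per time no test of this difference could be made, and both ratios share the untreated library.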

How the results depend on the processing

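The count of higher genes (468) moved beyond 1.5 times to 114 without centring, 1495 without a filter on low values, 162 above an RPKM of 5, 150 with a pseudocount of 1 RPKM, 1144 at 1.5-fold and 145 at 3-fold. The count of lower genes (208) moved to 2076 without centring, 1401 without a filter, 51 above an RPKM of 5, 929 at 1.5-fold and 14 at 3-fold. Of 4 alternatives chosen after seeing the data, requiring the whole counting interval past 2-fold left 277 higher and 86 lower. The share of higher among called genes was 69.2%, and it was 5.21% without centring, 79.7% with scaling to the sum of the values (556 higher, 142 lower), 51.6% without a filter, 51.2% with a pseudocount of 1 RPKM, 55.2% at 1.5-fold and 91.2% at 3-fold. The median log2 ratio before centring (-0.741) was -0.79 over genes above an RPKM of 1 in these 2 libraries, whether for centring or as the filter, -0.81 above an RPKM of 5, -0.70 with a pseudocount of 0.1 RPKM and -0.48 with 1 RPKM. The median of the CXC and CX3C chemokines (1.85) reversed to -0.55 above an RPKM of 5, where only Cxcl12 and Cxcl14 remain. Causes of the other moves were not tested. Of 719 values of 45 named genes under the alternatives, 608 stayed within the counting interval, 111 moved and 0 reversed. Of 764 list medians 374 stayed within the difference between the columns. Under the centred alternatives 20 of 48 lists changed sign at least once, 18 of them with a main median within 0.5 of the centre, and 1 of the 8 lists with a median past 2-fold did, that of the CXC chemokines. Low untreated reads limit Saa3, Cxcl2, Cxcl10 and Il6 most. No paired analysis was possible because each time has 1 library.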
